A study of Mus musculus with 2 samples.

Results

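The genes described here encode the lipopolysaccharide receptor complex and the first proteins that act behind it. They are the receptor Tlr4 with its partners Cd14 and Ly96, the adaptors Myd88, Tirap, Ticam1 and Ticam2, and the kinase family members Irak2, Irak3 and Irak4. They were chosen by gene symbol from their known roles, with earlier results of these data known, and number 10 of the 55536 genes in the deposited gene tables. All 10 symbols were found.

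The study sequenced total RNA, depleted of ribosomal RNA, from mouse macrophages after fractionation, using the nucleoplasm, which is the soluble nuclear contents. The cells were primary bone marrow-derived macrophages (BMDM) of strain C57BL/6J, exposed to Lipid A at 100 ng/ml for 120 min. Lipid A is the lipid anchor of bacterial lipopolysaccharide and the part that the receptor binds. There were 2 libraries, biological replicates 1 and 2 of a single group, with separate biosample entries and the same donor entry. The labels give an RNA input of 1 µg for replicate 1 and 500 ng for replicate 2, and give neither sex nor age. Elsewhere the labels call the fraction simply nuclear. No unstimulated culture, other time point or cytoplasmic fraction was analysed here. The levels therefore say nothing of induction, and groups could not be tested against each other. The spread between the libraries is the only measure of error between replicates, and it may in part be technical. Intervals given below cover counting error only.

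As background, Cd14 takes lipopolysaccharide from a serum carrier and hands it to Ly96 (MD-2), which is bound to the outer part of Tlr4. At the cell surface the receptor then recruits Tirap and Myd88, which assemble with Irak4 and Irak2 (or Irak1) into a signalling complex that activates NF-kB. After internalisation the receptor uses Ticam2 (TRAM) and Ticam1 (TRIF) to activate Irf3 and the interferon beta gene, while Irak3 (IRAK-M) restrains the Myd88 branch in macrophages.

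Depth was 14374739 estimated counts for replicate 1 and 16372797 for replicate 2. The receptor, adaptor and IRAK genes took 8370 and 13051 of them, or 0.0582% and 0.0797%. All 9 macrophage markers were detected in both libraries, with summed levels of 942 and 2006 TPM (transcript abundance per effective length, scaled to a fixed total per library). The libraries differed in other ways. Mitochondrial genes took 0.424% of counts in replicate 1 and 8.70% in replicate 2. Of 10 stromal (fibroblast) markers none reached 1 TPM in both libraries, but their summed counts were 4901 in replicate 1 and 25 in replicate 2, where Col3a1, Col6a2, Dcn and Lum were at 0. Summed counts of the other marker lists were 27 and 52 for neutrophils, 35 and 11 for B cells, 0 and 1 for T cells, 23 and 20 for erythroid cells, and 506 and 518 for endothelial cells, nearly all of the last from Kdr. Replicate, RNA input, mitochondrial share and stromal RNA all differ along the same line and cannot be told apart. Fewer cells of a type and less RNA per cell cannot be told apart either.

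RNA of every receptor, adaptor and IRAK gene was present in both nucleoplasmic libraries. All 10 reached 1 TPM in both, against 40.4% of the 22015 nuclear-encoded protein-coding genes. Their median level was 13.2 TPM in replicate 1 and 8.19 TPM in replicate 2. The median over detected protein-coding genes was 10.7 and 7.35 TPM in the same libraries, so the median member stood near the middle of those genes. The spread among members was wide, from 4.11 TPM for Ticam1 to 268 TPM for Cd14, both in replicate 2.

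By mean level the order was Cd14, Irak2, Myd88, Ly96, Tlr4, Ticam2, Irak3, Tirap, Irak4 and Ticam1. Of the 9 neighbouring pairs in that order, 2 had ranges that did not overlap, Irak2 above Myd88 and Ly96 above Tlr4. The other 7 neighbours did not differ beyond the spread between the libraries. Over all 45 pairs, 39 had the same order in both libraries and 34 had ranges apart. The order thus separates a high group of Cd14 and Irak2 from the rest, and gives little resolution among the 5 lowest genes.

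**Figure D1:**
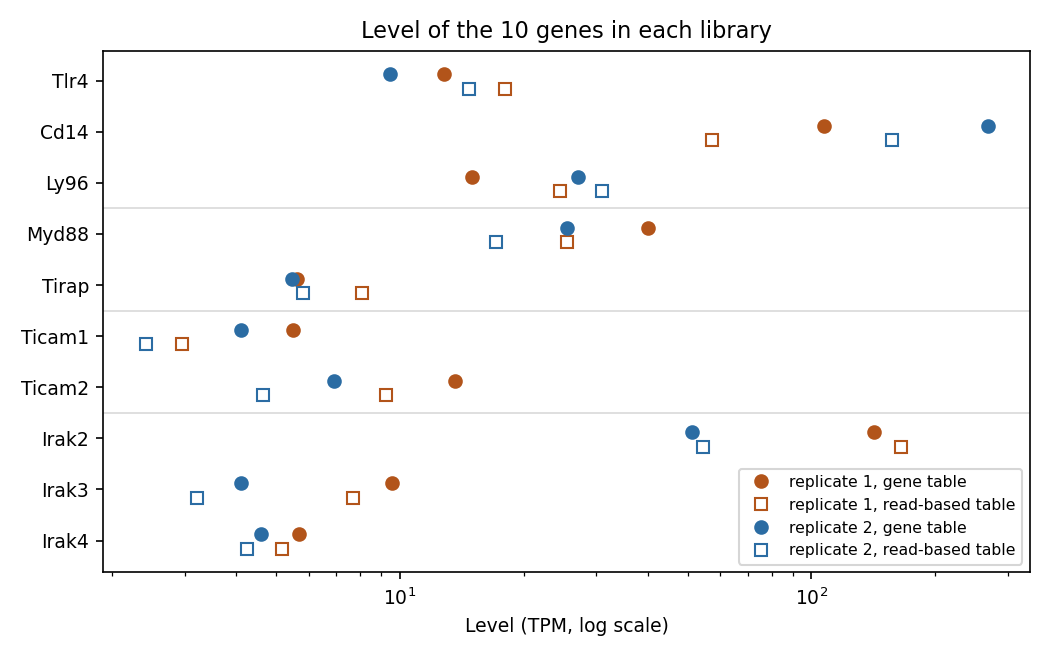
Level of each gene in TPM on a log axis, with filled circles for the gene table, open squares for the read-based transcript table summed per gene, and colour for the library. Cd14 (107 and 268 TPM in the gene table) and Irak2 (142 and 51.2 TPM) lie above the other genes, and their order differs between the libraries.

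Tlr4, the signalling receptor itself, was present at a moderate level. It lies on chr4:66827584-66930284, plus strand (mm10). Its level was 12.8 TPM in replicate 1, from 661 counts, and 9.48 TPM in replicate 2, from 763 counts, with a mean of 11.2 ± 2.38 TPM (SD, n = 2). This placed it at percentiles 82.0 and 82.8 of protein-coding genes, nearly the same place in both libraries.

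The tables disagree on how Tlr4 TPM was shared among its transcripts. In the table made from the transcriptome alignment, Tlr4-201, which codes for the full receptor of 835 codons, took 94.2% and 98.0% of the gene's TPM, and Tlr4-202 was listed at 0 in both libraries. In the table made directly from the reads, Tlr4-201 took 41.8% and 39.1%, and Tlr4-202 took 37.0% and 45.6%. By counts Tlr4-201 led in that table too, with 70.0% and 64.5% against 26.3% and 32.5% for Tlr4-202. Tlr4-201 is 4077 bases long and Tlr4-202 is 1866. Tlr4-202 has 154 codons, and its exon 3 starts 81.6 kb beyond the end of Tlr4-201. A further 18.9% and 14.7% of the read-based TPM went to the processed transcript Tlr4-204, also listed at 0 in the alignment table. The transcripts share exon 2 and part there, as the junctions below show. Lower case marks the last 20 bases of exon 2 (chr4:66834041-66834060), and capitals mark the first 20 bases of the next exon (chr4:66839229-66839248 for Tlr4-201 and chr4:66924366-66924385 for Tlr4-202), all on the plus strand of mm10.
Tlr4-201: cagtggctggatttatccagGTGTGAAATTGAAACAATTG
Tlr4-202: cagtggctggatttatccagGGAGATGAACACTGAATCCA

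Cd14, the co-receptor that loads lipopolysaccharide, had the highest mean level and the largest spread in absolute terms. The gene lies on chr18:36725067-36726798, minus strand. It had 107 TPM in replicate 1 from 2013 counts and 268 TPM in replicate 2 from 7839 counts, a mean of 188 ± 114 TPM (SD, n = 2). Replicate 2 was the higher library in the gene table and also in the read-based table, at 57.4 and 157 TPM. Among protein-coding genes Cd14 stood at percentiles 97.6 and 99.6, so it was among the most abundant in both. The spliced coding transcript Cd14-201 took 88.1% and 93.7% of its TPM. The rest was Cd14-202, which keeps the gene's only intron of 91 bases, at 11.9% and 6.33%.

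Ly96 encodes the secreted protein that forms the lipid pocket on Tlr4. It lies on chr1:16688051-16709611, plus strand. Its level was 15.0 TPM in replicate 1 from 90.0 counts and 27.1 TPM in replicate 2 from 241 counts, with an SD of 8.55 TPM (n = 2). Ly96 had the fewest counts of the 10 genes in replicate 1 and the shortest effective length, 426 bases there. The read-based table gave it 281 and 663 counts, 3.12 and 2.75 times as many, and 24.5 and 31.0 TPM. Replicate 2 was the higher library in both tables.

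The difference in Ly96 lay in its coding transcript. Counts of Ly96-201, which spans all 5 exons, were 59.2 in replicate 1 and 212 in replicate 2. Counts of Ly96-203, which ends inside intron 2, were 30.8 and 28.7, with hardly any difference. The share of Ly96-203 in the gene's TPM was accordingly 32.4% in replicate 1 and 11.1% in replicate 2. This transcript runs 174 bases into an intron of 9021 bases without using the donor site below, at chr1:16691754-16691793, where capitals mark the first 2 bases of the intron.
Ly96 intron 2 donor: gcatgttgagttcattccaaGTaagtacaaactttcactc

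Myd88, the adaptor of the surface branch, was the most abundant of the 4 adaptors in both libraries. It lies on chr9:119335934-119341411, minus strand. Its level was 40.1 TPM in replicate 1 from 1085 counts and 25.4 TPM in replicate 2 from 1036 counts, a mean of 32.7 ± 10.5 TPM (SD, n = 2). The percentile among protein-coding genes was 92.7 and 92.5, so its place hardly moved although its TPM was lower in replicate 2. The read-based table gave lower levels, 25.4 TPM in replicate 1 and 17.1 TPM in replicate 2.

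A steady share of Myd88 TPM was assigned to a transcript that keeps introns, in both libraries and both tables. Whether reads of unspliced precursor RNA were assigned to it was not tested. The spliced coding transcript Myd88-201 (296 codons) took 64.5% and 63.7% of TPM. Myd88-203, in which introns 2 and 3 remain, took 35.5% and 36.3%, and the read-based table gave 35.7% and 36.4%. No other member with an annotated retained-intron transcript had shares so close between libraries and tables. The introns are short, 389 and 160 bases, and lie wholly within Myd88-203. Their sites are shown 5′ to 3′ on the minus strand, with the first or last 2 intron bases in capitals, because these are the sites left uncut in that transcript. They lie at chr9:119338556-119338595, chr9:119338167-119338206, chr9:119337986-119338025 and chr9:119337826-119337865 in the order given.
Myd88 intron 2 donor: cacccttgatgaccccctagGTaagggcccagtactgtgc
Myd88 intron 2 acceptor: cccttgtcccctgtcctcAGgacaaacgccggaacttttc
Myd88 intron 3 donor: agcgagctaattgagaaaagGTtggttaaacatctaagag
Myd88 intron 3 acceptor: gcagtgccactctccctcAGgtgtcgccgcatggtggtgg
The shorter splice form known from lipopolysaccharide-treated cells joins exon 1 to exon 3. Of the annotated Myd88 transcripts 0 hold that junction, so this form was not measured.

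Tirap, which bridges the receptor to Myd88 at the membrane, had the smallest spread in TPM. It lies on chr9:35184551-35200291, minus strand. Its level was 5.61 TPM in replicate 1 from 243 counts and 5.46 TPM in replicate 2 from 335 counts, a mean of 5.54 ± 0.106 TPM (SD, n = 2). The read-based table gave 2.99 and 2.58 times as many counts, with 8.07 and 5.83 TPM, so the closeness of the libraries held in the gene table and not in the read-based one. All 7 annotated Tirap transcripts are classed as protein-coding. Tirap-201 led in both libraries, at 53.5% and 52.6% of TPM. Tirap-203 followed with 21.6% and 24.0%, but had 1.34% and 7.91% in the read-based table. It shares with Tirap-201 a coding length of 747 bases. Tirap-206, a short form with 72 coding bases, took 11.4% and 18.1% from 3.47 and 8.13 counts, too few to give that share any precision.

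Ticam1, the adaptor that leads to Irf3, was the lowest of the 10 genes in both libraries, though in replicate 2 only just below Irak3. It lies on chr17:56269319-56276786, minus strand, and has a single annotated transcript of 732 codons. Its level was 5.50 TPM in replicate 1 from 215 counts and 4.11 TPM in replicate 2 from 242 counts, a mean of 4.80 ± 0.983 TPM (SD, n = 2). The read-based table also placed it last, at 2.95 and 2.41 TPM.

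Ticam2, which links the internalised receptor to Ticam1, was higher than Ticam1 in both libraries. It lies on chr18:46557291-46574533, minus strand. Its level was 13.6 TPM in replicate 1 from 541 counts and 6.90 TPM in replicate 2 from 469 counts, a mean of 10.2 ± 4.74 TPM (SD, n = 2). Ticam2 was the only member whose leading transcript changed between libraries in the alignment table. In replicate 1 Ticam2-202, which ends inside intron 2, led with 52.9% of TPM. In replicate 2 the coding transcript Ticam2-201 led with 64.2%. The counts show which of them differed. Ticam2-201 had 359.6 and 375 counts, and Ticam2-202 had 182 and 94.1. By counts Ticam2-201 led in both libraries, and it is 4204 bases long where Ticam2-202 is 2010.

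Irak2, the kinase family member that sustains signalling behind Myd88, was by far the most abundant of the IRAK genes here. It lies on chr6:113638467-113695026, plus strand. Its level was 142 TPM in replicate 1 from 3007 counts and 51.2 TPM in replicate 2 from 1672 counts, a mean of 96.6 ± 64.1 TPM (SD, n = 2). Replicate 1 was the higher library in the read-based table too, at 165 and 54.5 TPM. Even the lower library placed it at percentile 96.5 of protein-coding genes.

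Irak2 RNA was spread over more transcripts than that of any other member. The full coding transcript Irak2-201 (622 codons) took 33.9% and 37.8% of TPM, although it held most of the counts, 2019 and 1225. A further coding transcript, Irak2-202, named after its values were seen, is 2974 bases long and held 5.57% and 4.02% of TPM. Most of the remaining TPM lay in shorter, noncoding transcripts. Irak2-208, which ends 163 bases into intron 3, took 20.8% and 12.5%. Irak2-207, which begins 38 bases before the end of intron 11, took 7.78% and 25.7%. Irak2-204, which begins 421 bases before the end of intron 3, took 8.46% and 6.05%. The processed transcripts Irak2-206 and Irak2-205 took 16.6% and 5.78%, and 5.24% and 5.64%. In the read-based table Irak2-206 led by TPM in replicate 1 with 28.9% and Irak2-208 in replicate 2 with 21.7%. The leading Irak2 transcript by TPM thus depended on the table, while Irak2-201 had the most counts in both. The unused sites are shown with the first or last 2 intron bases in capitals, since each marks where a short transcript departs from Irak2-201. They lie at chr6:113665827-113665866, chr6:113670179-113670218 and chr6:113690763-113690802 on the plus strand.
Irak2 intron 3 donor (Irak2-208): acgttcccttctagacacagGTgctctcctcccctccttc
Irak2 intron 3 acceptor (Irak2-204): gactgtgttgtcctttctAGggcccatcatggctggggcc
Irak2 intron 11 acceptor (Irak2-207): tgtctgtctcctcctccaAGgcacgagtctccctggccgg

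Irak3, the restraining family member, was far below Irak2. It lies on chr10:120141648-120202130, minus strand. Its level was 9.55 TPM in replicate 1 from 297 counts and 4.12 TPM in replicate 2 from 203 counts, a mean of 6.84 ± 3.84 TPM (SD, n = 2). Replicate 1 was higher in the read-based table as well, at 7.68 and 3.21 TPM.

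A transcript of Irak3 annotated for nonsense-mediated decay, the pathway that degrades RNA with an early stop, was given counts in replicate 1 only. Irak3-202 had 75.2 counts in replicate 1, which was 24.8% of the gene's TPM. In replicate 2 it was listed at 0, which allows up to 3 counts if reads were assigned to it without error. The read-based table also listed it at 0 in replicate 2, and at 12.1% in replicate 1. By posterior mean TPM, a second estimate from the same alignment, its share was 22.7% in replicate 1 and 3.12% in replicate 2. The coding transcript Irak3-201 had similar counts in both libraries, 193 and 181. Irak3-202 cuts exon 8 at a donor 52 bases further on than Irak3-201, and its annotated reading frame has 309 codons in place of 609. Irak3-204, which runs 117 bases into the same intron, took 19.7% and 25.2% of TPM, from 25.2 and 21.1 counts. The stretch with both donors is shown on the minus strand (chr10:120165021-120165112), with the GT of each in capitals, the first used by Irak3-201 and the second by Irak3-202.
Irak3 exon 8 end: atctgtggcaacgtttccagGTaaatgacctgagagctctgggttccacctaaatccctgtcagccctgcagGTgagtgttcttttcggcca

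Irak4, the kinase that starts the cascade, was low and similar in both libraries. It lies on chr15:94543643-94581815, plus strand. Its level was 5.69 TPM in replicate 1 from 218 counts and 4.59 TPM in replicate 2 from 251 counts, a mean of 5.14 ± 0.778 TPM (SD, n = 2). Its 2 coding transcripts differ at the 3′ end. Irak4-202 (453 codons), whose last exon starts 11.6 kb beyond the end of Irak4-201 (459 codons), took 59.2% and 49.0% of TPM, and Irak4-201 took 25.8% and 31.2%. In the read-based table they were nearly level, at 37.4% and 34.3% for Irak4-202 and 35.7% and 38.7% for Irak4-201. Irak4-203, which ends 262 bases into intron 6, took 14.9% and 19.8%, from only 11.3 and 18.2 counts. Its read-based shares were level, at 26.9% and 27.0%. The donor it passes is shown because its exon ends in AC and not in the more usual AG (chr15:94556672-94556711, plus strand).
Irak4 intron 6 donor: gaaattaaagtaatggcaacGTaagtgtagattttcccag

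To set the libraries side by side, each gene's log2 ratio of (TPM + 1) in replicate 2 over replicate 1 was taken relative to the median of the 12655 genes whose mean reached 1 TPM. That median was -0.58, since TPM of most genes was lower in replicate 2. The pseudocount of 1 understates ratios of low genes. Relative to it, 6 of 10 members were higher in replicate 2, against 50.0% of all such genes and 55.7% of protein-coding ones, and the members' median was 0.21. As a group they therefore lay close to the background, and the differences were in single genes.

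Cd14 and Ly96 were the members furthest above the median gene, and Irak2 was furthest below. For Cd14 the relative log2 ratio was 1.90, at percentile 99.5 of protein-coding genes. From counts alone it was 2.01, with a 95% exact (Clopper-Pearson) interval of 1.93 to 2.08 that covers counting error only. For Ly96 it was 1.40, at percentile 98.1, and from counts 1.47 with an interval of 1.11 to 1.83. For Irak2 it was -0.87, at percentile 2.67, and from counts -0.80 with an interval of -0.89 to -0.72. These intervals leave out 0 and concern these libraries, since 1 group of 2 gives no test of a condition.

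The remaining members stood closer to the median gene. Tirap was at 0.55, Irak4 at 0.32, Ticam1 at 0.24, Tlr4 at 0.18, Myd88 at -0.06, Ticam2 at -0.30 and Irak3 at -0.46. The counting interval included 0 for Myd88, Ticam1, Ticam2 and Irak4. Over 7 other settings of scaling, pseudocount, filter, table and reference genes, Cd14, Ly96, Tirap and Irak4 stayed above the median gene and Ticam2, Irak2 and Irak3 stayed below. Tlr4, Myd88 and Ticam1 changed sign in at least 1 setting, with ranges of -0.10 to 0.35, -0.34 to 0.08 and -0.04 to 0.41. In the same libraries 7 of 9 macrophage markers were higher in replicate 2, against 55.7% of protein-coding genes, with a median of 0.75. The stromal markers summed to 67.7 TPM in replicate 1 and 0.300 TPM in replicate 2. The part of stromal RNA, mitochondrial share or RNA input in the differences of Cd14, Ly96 and Irak2 was not tested.

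**Figure D2:**
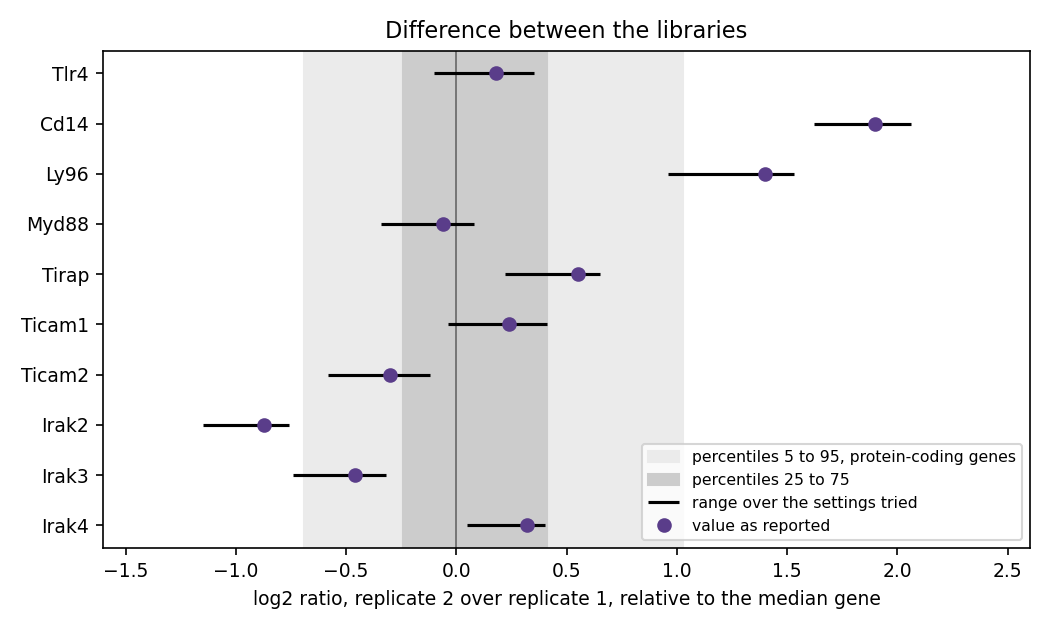
Log2 ratio of replicate 2 over replicate 1 for each gene, relative to the median gene, with a bar for the range over 8 settings and grey bands for the spread of protein-coding genes. Cd14 (1.90) and Ly96 (1.40) lie right of the wider band, which ends at 1.03, and Irak2 (-0.87) lies left of it, below -0.69.

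Ratios between partner genes within a library do not depend on the library's scaling, but their size differed between the tables. Cd14 stood at 8.35 times Tlr4 in replicate 1 and 28.3 times in replicate 2. In the read-based table it stood at 3.19 and 10.6 times. Ly96, which binds Tlr4 in equal parts as a protein, stood at 1.17 and 2.86 times the TPM of Tlr4, and at 1.36 and 2.11 times in the read-based table. Among the adaptors, Tirap was at 0.140 and 0.215 of Myd88, and Ticam1 at 0.137 and 0.162 of Myd88. The read-based table gave 0.317 and 0.340 for Tirap, and 0.116 and 0.141 for Ticam1. Ticam2 was at 2.47 and 1.68 times Ticam1. Both libraries thus held more Myd88 RNA than Ticam1 RNA and more Ticam2 RNA than Ticam1 RNA, in the read-based table too, where the latter ratio was 3.13 and 1.93.

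Among the kinases the ratios to Irak4 were lower in replicate 2. Irak2 was at 24.9 and 11.2 times Irak4, and Irak3 at 1.68 and 0.898 times. Irak3 was at 0.0673 and 0.0804 of Irak2, with a mean of 0.0739 ± 0.00929 (SD, n = 2). The last of these had a small spread beside that of its parts, although Irak2 and Irak3 each differed more than 2-fold in TPM. In the read-based table it was 0.0465 and 0.0589.

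The 10 genes have 39 annotated transcripts, of which 28 held 10% or more of their gene's TPM in a library of either table. By TPM the leading transcript was the same in both libraries for 9 of 10 genes in the alignment table. In the read-based table this held for 5 of 10. It was the same in all 4 columns for Cd14, Ly96, Myd88, Tirap and Ticam1. For Ticam2 both tables named the same leader in each library, and the leader differed between the libraries. For Tlr4 and the 3 IRAK genes the leader by TPM differed between the tables in at least 1 library. By counts, Tlr4-201, Ticam2-201, Irak2-201, Irak3-201 and Irak4-202 led in both libraries and both tables. Their shares of read-based counts were 70.0% and 64.5%, 60.5% and 77.5%, 46.6% and 52.2%, 55.1% and 82.0%, and 50.4% and 46.4%.

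**Figure D3:**
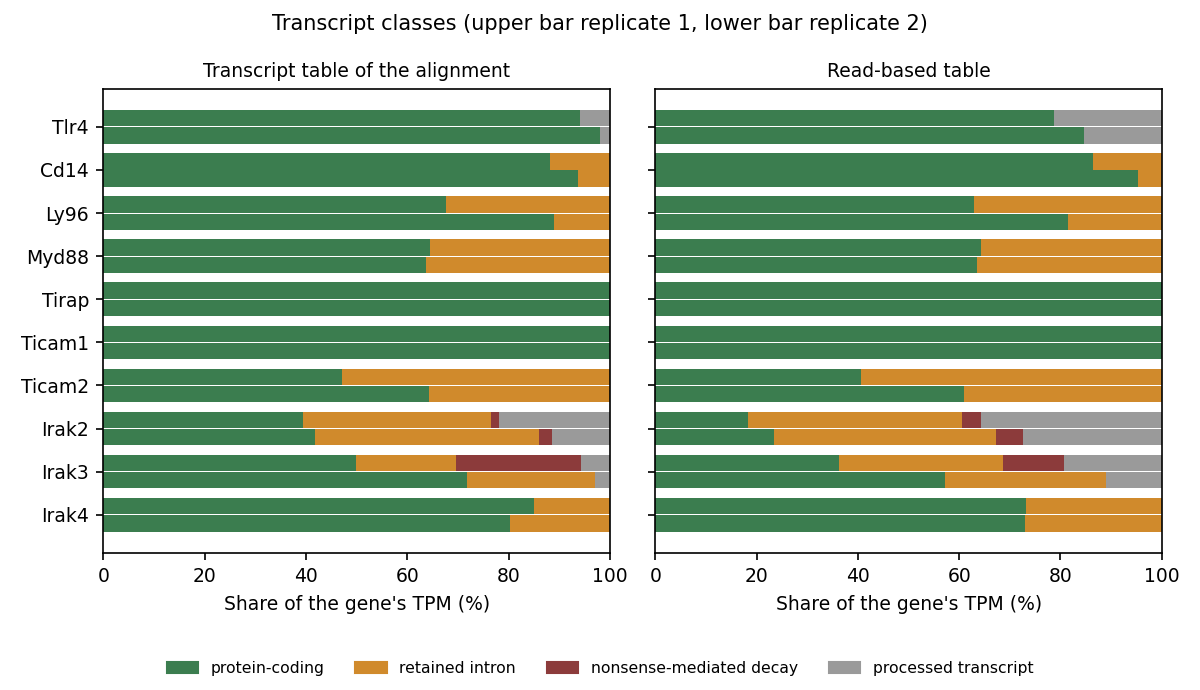
Share of each gene's TPM by transcript class, in percent, for the transcript table of the alignment (left) and the read-based table (right), with replicate 1 as the upper bar and replicate 2 as the lower. Myd88 has nearly equal bars throughout (retained-intron share 35.5% and 36.3%). The class for nonsense-mediated decay in Irak3 has a bar in replicate 1 (24.8%) and is listed at 0 in replicate 2.

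Transcripts annotated as retaining an intron existed for 7 of the 10 genes, 9 transcripts in all. Their summed share of TPM had a median over the 7 genes of 32.4% in replicate 1 and 25.2% in replicate 2. Over 5742 detected protein-coding genes with such a transcript the medians were 38.4% and 31.9%. The share was lower in replicate 2 for 3 of the 7 members, against 68.2% of those genes. These were Cd14 (11.9% and 6.33%), Ly96 (32.4% and 11.1%) and Ticam2 (52.9% and 35.8%). It was higher in replicate 2 for Myd88 (35.5% and 36.3%), Irak2 (37.0% and 44.3%), Irak3 (19.7% and 25.2%) and Irak4 (14.9% and 19.8%). By share of counts, and in the read-based table, 4 of 7 were lower. The direction for Irak2 turned by counts, at 17.0% and 15.9%, and that for Irak3 turned in the read-based table, at 32.4% and 31.8%. For Irak4 the read-based shares were level, at 26.9% and 27.0%. The tables hold annotated transcripts and no entry for unspliced precursor RNA. Whether reads from precursors were assigned to these transcripts was not tested.

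**Figure D4:**
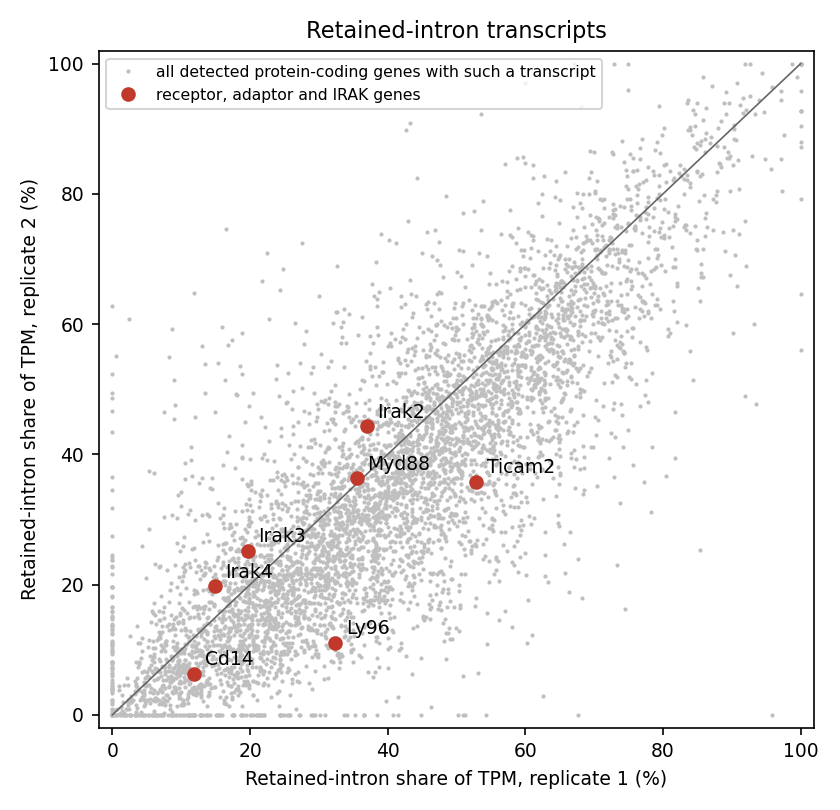
Retained-intron share of TPM in replicate 1 (horizontal) and replicate 2 (vertical), in percent, with grey points for the 5742 detected protein-coding genes and red points for the 7 members that have such a transcript. Ly96 (32.4% and 11.1%) and Ticam2 (52.9% and 35.8%) lie furthest below the diagonal of equal shares, and Myd88 lies on it.

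Genes around the receptor were mostly present as well. Of 48 other pathway genes, 41 reached 1 TPM in both libraries, against 40.4% of nuclear-encoded protein-coding genes. Among 13 genes for partners and handling of the receptor, 11 did. The highest was Msr1, a scavenger receptor that also binds lipopolysaccharide, at 345 and 232 TPM. The lowest was Lbp, the serum carrier made mainly by liver, at 0.870 and 0.480 TPM, and Cnpy4 had 0.820 TPM in replicate 1 and 1.74 in replicate 2. Relative to the median gene, 10 of the 12 with a value were higher in replicate 2, against 55.7% of protein-coding genes. Their median was 0.82, on the same side as Cd14 and Ly96. Itgam belongs both to this list and to the macrophage markers. Hsp90b1, the chaperone that folds Tlr4, and Cd36, named after their values were seen, had 45.0 and 107 TPM, and 13.4 and 52.5 TPM. Theirs were the largest relative log2 ratios of the list, 1.82 and 2.47. Ly86 (-0.06) and Rab11a (-0.29), also named after their values were seen, lay below the median gene.

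Of 22 signalling genes that act after the adaptors, 21 were detected, against the 40.4% of protein-coding genes given above. The highest was Ikbke, a kinase related to Tbk1, at 785 and 336 TPM, and the lowest was Peli3, a ubiquitin ligase, at 1.07 and 0.660 TPM. Relative to the median gene, 8 of 21 were higher in replicate 2, against 55.7% of protein-coding genes, with a median of -0.11. Irak1, named after its values were seen because it completes the IRAK family, had 22.4 and 12.4 TPM, between Irak2 and Irak3 in both libraries.

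Of 13 genes that restrain the receptor or its adaptors, 9 were detected, against the same 40.4% of protein-coding genes. The highest was Tnfaip3 (A20), a ubiquitin-editing enzyme that limits NF-kB, at 803 and 469 TPM. Sarm1, another adaptor of the same domain family, was the lowest at 0.0200 and 0.0100 TPM from 1 count in each library. Sigirr (0.190 and 0.360 TPM), Il1rl1 (0.0600 and 0.0700 TPM) and Irak1bp1 (0.310 and 0.0500 TPM) were also under 1 TPM. Of the 9 with a ratio, 6 were higher in replicate 2, against 55.7% of protein-coding genes, with a median of 0.07. Irak3, which also restrains the pathway, had a lower mean level (6.84 TPM) than each of the 9 detected genes of this list. Its range overlapped those of Rnf41 (11.4 and 7.71 TPM) and Cd300a (8.96 and 13.2 TPM), named after their values were seen.

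Some of these genes have overlapping neighbours. The sources used here do not say whether counting used strand. For 6 of the 10 genes another annotated gene overlaps, on the opposite strand for 5 and on the same strand for 3. Myd88 overlaps Acaa1a, which had 1738 and 1253 counts, and Irak4 overlaps Twf1, which had 537 and 782. Irak2 overlaps Gm43963, a locus whose transcript still awaits experimental evidence, which had 775 and 481 counts, and Ticam2 overlaps Tmed7 on its own strand, which had 883 and 1511. Tirap overlaps Srpr, with 425 and 661 counts, and Irak3 overlaps Tmbim4, with 172 and 196. Whether reads from such pairs were split between them was not tested.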

How the data were processed

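The authors deposited 3 tables per library: genes and transcripts quantified from a transcriptome alignment, and transcripts quantified from the reads themselves, per the accompanying notes, which name build mm10 and annotation M21. Tools, versions and strand setting are not stated in the sources used. Deposited expected counts are estimated counts and can be fractions, per the file headers. The deposited TPM values are counts over effective length scaled to a fixed total per table, per the file headers, so they move with the short RNA of a library. The deposited FPKM values served as an alternative, and the deposited percent column of transcript shares was not used, since shares were computed from TPM. Entries without a gene name took 1.41% and 0.245% of counts and were left out.

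Members and gene lists were chosen with earlier results of these data known. Named genes are all members, their transcripts with 10% or more of the gene's TPM in any column, the highest and lowest of each pathway list, and every pathway gene under 1 TPM in either library. Detected means 1 TPM or more in both libraries. Retained-intron shares were added after the data were seen. A count of 0 allows 3 counts, or 0.213 and 0.141 TPM at 1 kb. Intervals and floors describe counting error only, since the reads carry no molecular identifiers and may be copies of the same molecule. Sequences were read from the M21 transcript sequences, with mm10 positions taken from the M21 exons. Intron bases shown are those held in the transcripts annotated as retaining an intron. Sequences of genes on chromosome 18 and protein sequences are not reported here.

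The ratio calculation was tested on simulated data with 200 changed genes. Alternative scalings used edgeR 4.0.16 (TMM) and DESeq2 1.42.0 size factors on counts rounded to whole numbers, under R 4.3.3. Tables were handled with pandas 2.3.3 and numpy 2.4.6 in Python 3.11.15, intervals came from scipy 1.17.1, and plots from matplotlib 3.10.9.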

Additional observations from a re-analysis of the deposited data

How the results depend on the processing

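Of 29 recomputed summary values over the alternatives, 26 stayed within a limit set for their kind. The limit was the spread between libraries for levels, and 1.5 times the count for numbers of genes. A relative log2 ratio contrasts the libraries and so has no such spread. The members' median level was 10.7 TPM, and 41.9 when TPM was rescaled over nuclear-encoded protein-coding genes, a change of unit that raises every gene. Their median relative log2 ratio was 0.21, and -0.07 with no filter on low values. The leading transcript by TPM was the same in both libraries for 9 genes, and for 5 in the read-based table. Of 175 values for single genes, 123 moved by less than the limit for their kind, 51 by more, and 1 whose counting interval had left out 0 changed sign. That was Tlr4, with a relative log2 ratio of 0.18, and of -0.10 with no filter. For relative log2 ratios of single genes the limit was the reach of the counting interval to either side. For the other single values it was the spread between libraries. The cause of the table differences was not tested. No paired analysis was possible because there is 1 group. Depth limits transcripts with few counts, such as Tirap-206, and 2 libraries give an SD of low precision.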
